A study of Mus musculus with 6 samples.

Results

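The genes described are 34 regulators and markers of the cell division cycle, with the phosphatase gene Cdc25a, a reported target of the microRNA miR-21, at their head. They were chosen by name, by a rule that uses no measured value, though with earlier results of these data known, and all 34 were found among the 22956 genes of the deposited table. Messenger RNA was sequenced from 6 mouse samples labelled as aortic smooth muscle cells. In the knockout (KO) group, 3 samples of genotype miR-21fl/flmTmG/Myh11ERT2 carried a floxed miR-21 gene, the mTmG reporter, which switches colour in cells where Cre recombinase has acted, and an inducible Cre driven by Myh11, a gene of smooth muscle. In the WT group, 3 samples of genotype WT/mTmG/ Myh11ERT2 carried the same reporter and Cre driver with an unfloxed miR-21 gene. All 6 came from C57B6 animals 30 weeks old, after 20 weeks of western diet, a fat-rich feed used in atherosclerosis work. Cells in which the driver is silent would keep miR-21, and the inducing agent is not given in the sources used here. Separate animals are not stated for the replicates, and the p-values therefore describe the spread among these 6 libraries, part or all of which may be technical. The question was whether cell cycle messages differ in smooth muscle with and without miR-21.

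Cells enter division when D-type cyclins bind the kinases Cdk4 and Cdk6 and relieve the block that retinoblastoma proteins place on E2F factors. Cyclin E with Cdk2 then starts DNA replication, and cyclins A and B with Cdk1 drive mitosis. Cdc25 phosphatases switch these kinases on by removing inhibitory phosphates. A microRNA pairs through its seed with the 3′ untranslated region (UTR) of messages and lowers them. Smooth muscle cells of a healthy artery seldom divide, and their division is a known part of vessel wall disease.

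The sequences that tie miR-21 to these genes are its mature strand, from the RefSeq table of GRCm38.p6, and the stretches of the members' 3′ UTRs that match its seed. The UTRs are those of GENCODE M21 (GRCm38, the assembly of mm10). The seed (bases 2 to 8) is in capitals in the microRNA, which lies at chr11:86584120-86584141 on the minus strand. Its match is in capitals in the 30-base windows.
miR-21a-5p: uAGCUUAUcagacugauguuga
Cdc25a: tggctacaggacATAAGCTAaccttcccag
Cdk6: tgatgcccccaaATAAGCTgcctgcgtttt
Cdkn1b: ttataatagtttATAAGCTccttatgaaga
Pcna: tttgcttaaagaATAAGCTccaaagtaaaa
Tyms: tattaatattaaATAAGCTggactgaggca

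Of the 34 members, 5 held the 7-base match ATAAGCT in the 3′ UTR of the principal transcript (14.7%), against 966 of 13185 tested genes searched (7.33%). Cdc25a alone held the longer match ATAAGCTA, which ends in an additional A and which 2.18% of all searched genes hold. The Cdc25a window spans chr9:109892929-109892958 on the plus strand, with the match at bases 722 to 729 of a 3′ UTR of 1676 bases. The Cdk6 window lies at chr5:3528612-3528641 on the plus strand, in a UTR of 10217 bases. Those of Cdkn1b (chr6:134923168-134923197, plus strand), Pcna (chr2:132249413-132249442, minus strand) and Tyms (chr5:30059583-30059612, minus strand) lie in UTRs of 3439, 454 and 2169 bases. A match describes these letters and does not show that the site is used.

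Library totals ranged from 37787465 to 154384307 estimated counts. Levels are given as CPM, counts scaled to a common library total with the TMM factors of edgeR. Defining smooth muscle markers (Myh11, Acta2, Tagln, Cnn1 and Myocd) were abundant in every library, with summed levels of 24858 to 32574 CPM in KO and 20659 to 31289 CPM in WT. The samples also held fibroblast messages, with 1255 to 5289 CPM in KO and 2922 to 6504 CPM in WT summed over 5 markers. T cell markers summed to at most 0.923 CPM in any library, and B cell markers to at most 0.349 CPM. KO 1 and WT 1 stood apart from the other libraries in mitotic genes, and results that rest on them are given with and without them. Bulk RNA was measured, so fewer cells of a type and less RNA per cell cannot be told apart. The level of miR-21 itself was not analysed here.

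Of the 3 Cdc25 genes, Cdc25a was higher in every KO library, while Cdc25b and Cdc25c overlapped between the groups, and none passed the edgeR threshold. Cdc25a, which removes inhibitory phosphates from Cdk2 and Cdk1 and is best known at the entry into DNA replication, had 19.5, 19.9 and 21.7 CPM in KO 1, 2 and 3, against 14.3, 16.0 and 13.7 CPM in WT 1, 2 and 3. Every KO library lay above every WT library. The means were 20.4 ± 1.19 CPM in KO and 14.7 ± 1.21 CPM in WT (SD, n = 3 each), a 1.39-fold difference. The log2 fold change, KO over WT, was 0.48 ± 0.09 (SE), with a 95% interval of 0.26 to 0.69. In edgeR's quasi-likelihood test this gave an unadjusted p of 0.00112, the rank of 33 among 16654 genes, and a Benjamini-Hochberg adjusted p of 0.565. DESeq2's Wald test on the same counts gave an adjusted p of 0.0107. An exact permutation test of log2 CPM gave p = 0.1 (two-sided), the smallest that 3 libraries against 3 allow. Leaving out each library in turn kept the log2 fold change between 0.42 and 0.54.

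Fibroblast, smooth muscle and handling markers had fold changes mostly in a single direction, and their sums followed Cdc25a across the libraries only in part. Fold changes were below 0 for 4 of 5 fibroblast markers, and above 0 for 5 of 5 smooth muscle markers and 4 of 4 handling genes (Fos, Jun, Egr1 and Atf3, which are induced as tissue is handled). The handling genes summed to 9299, 14593 and 11027 CPM in KO 1, 2 and 3, against 8349, 8865 and 11246 CPM in WT 1, 2 and 3. WT 3 thus lay above KO 1 and KO 3 in handling genes, though it had the lowest Cdc25a. In summed smooth muscle markers WT 2 (31289 CPM) lay above KO 1 (24858 CPM) and KO 3 (30566 CPM), with less Cdc25a than either. KO 2 and KO 3, with the lowest fibroblast sums (1255 and 1781 CPM), had the highest Cdc25a, and WT 1 and WT 3, with the highest sums (6504 and 5823 CPM), had the lowest. KO 1 had a higher fibroblast sum than WT 2 (5289 CPM in KO 1 and 2922 CPM in WT 2) and also more Cdc25a. The part of these markers in the Cdc25a difference was not tested.

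Cdc25b, a phosphatase that starts the activation of Cdk1 before mitosis, had 20.5, 13.3 and 17.6 CPM in KO 1, 2 and 3, against 14, 20.1 and 19.5 CPM in WT 1, 2 and 3. The groups overlapped, and the fold change on the log2 scale was -0.06 ± 0.20 (SE; 95% interval -0.53 to 0.41). Cdc25c, a mitotic phosphatase, was scarce, at 0.644, 0.0915 and 0.236 CPM in KO 1, 2 and 3, against 0.765, 0.172 and 0.357 CPM in WT 1, 2 and 3. Its log2 fold change of -0.43 ± 0.77 (SE) rested on as few as 4 counts in a library. The ratio of Cdc25a to Cdc25b CPM within a library was 0.948, 1.5 and 1.23 in KO 1, 2 and 3, against 1.02, 0.799 and 0.703 in WT 1, 2 and 3. KO 1 lay below WT 1, and the log2 ratio differed by 0.54 between the groups (exact permutation test, two-sided, p = 0.2, where 3 libraries against 3 allow no p below 0.1).

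**Figure D1:**
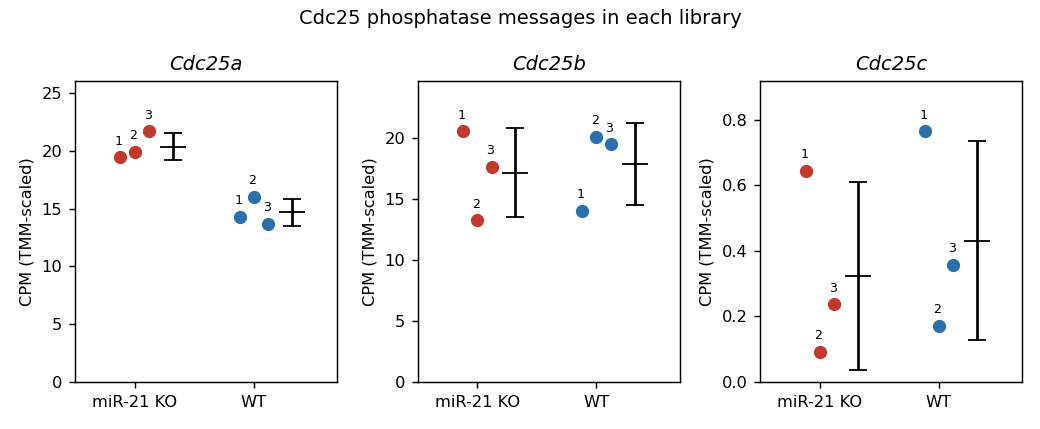
CPM of Cdc25a, Cdc25b and Cdc25c on a vertical axis from 0, with 1 point per library (numbered by replicate), KO left of WT, and bars for the mean and SD of 3 libraries beside the points. The 3 KO points of Cdc25a lie between 19.5 and 21.7 CPM, above the 3 WT points, while the groups overlap for Cdc25b and Cdc25c.

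Among the 10 genes of G1, the phase before DNA replication, 4 were higher and 6 lower in KO, with a median log2 fold change of -0.03, and none passed the edgeR threshold. The D-type cyclin Ccnd2 was the most abundant of the 34 members, with 304, 308 and 293 CPM in KO 1, 2 and 3, against 295, 285 and 329 CPM in WT 1, 2 and 3. Its groups overlapped, with a log2 fold change of -0.01 ± 0.08 (SE) and a 95% interval of -0.19 to 0.18. Ccnd3, another D-type cyclin, had 181 ± 3.72 CPM in KO and 167 ± 14.4 CPM in WT (SD, n = 3 each). Ccnd1, the D-type cyclin that responds to growth factors, differed more between libraries than between groups. It had 13.3, 6.61 and 7.58 CPM in KO 1, 2 and 3, against 18.8, 8.37 and 10.5 CPM in WT 1, 2 and 3, so that replicate 1 was the highest of each group. Its log2 fold change of -0.45 ± 0.38 (SE) was -0.05 without WT 1 and -0.82 without KO 1. With the replicate number as a block it was -0.44 (edgeR adjusted p = 0.151, against 0.873 without the block).

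Cdk6, a kinase partner of the D-type cyclins whose UTR holds the 7-base match, had 21.4, 23.1 and 21.8 CPM in KO 1, 2 and 3, against 21.5, 17.7 and 17.7 CPM in WT 1, 2 and 3. WT 1 lay within the KO range, and edgeR gave a log2 fold change of 0.22 ± 0.10 (SE) with an adjusted p of 0.835. Cdk4, the other such kinase, had 76.0 ± 6.27 CPM in KO and 79.5 ± 4.41 CPM in WT. Cdkn1b, which encodes the kinase inhibitor p27 and also holds a match, had 21.3 ± 2.37 CPM in KO and 20.7 ± 1.51 CPM in WT. For Cdk2, the partner of cyclin E, the log2 fold change was -0.09 ± 0.08 (SE). The cyclin E genes Ccne1 and Ccne2 stood at -0.11 ± 0.26 and 0.20 ± 0.22, and the transcription factor gene E2f1 at -0.15 ± 0.31 (SE). E2f1 was lowest in KO 2 and WT 2, at 2.79 and 3.44 CPM, and highest in KO 1 and WT 1, at 5.36 and 6.14 CPM.

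Of the 9 genes of DNA replication, 4 were higher and 5 lower in KO. Their median log2 fold change was -0.03, with a range of -0.22 to 0.12, and none passed the edgeR threshold. Mcm2 to Mcm7 encode the ring-shaped helicase that opens DNA at origins. Mcm6 had 99.6, 103 and 108 CPM in KO 1, 2 and 3, against 93.6, 98.8 and 92.8 CPM in WT 1, 2 and 3, without overlap. Its log2 fold change was 0.12 ± 0.06 (SE; edgeR adjusted p = 0.855). Mcm5 did not overlap in the other direction, with 5.50, 5.49 and 4.19 CPM in KO 1, 2 and 3, against 5.80, 5.99 and 5.83 CPM in WT 1, 2 and 3. Its log2 fold change was -0.22 ± 0.15 (SE; adjusted p = 0.864). Subunits of the same ring thus stood on either side of 0, and Mcm2, Mcm3, Mcm4 and Mcm7 lay between -0.13 and 0.01 with overlapping groups. Values of Mcm6 and Mcm7 were not whole numbers in any library, so these are less certain than those of the other subunits.

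Pcna, the sliding clamp of DNA polymerase, had 31.4, 25.9 and 25.8 CPM in KO 1, 2 and 3, against 20.9, 27.4 and 29.3 CPM in WT 1, 2 and 3. KO 1 was the highest library and WT 1 the lowest, and the other 4 lay close together, with a log2 fold change of 0.10 ± 0.14 (SE). Tyms, the thymidylate synthase gene, had 6.18 ± 0.991 CPM in KO and 6.97 ± 0.949 CPM in WT, and Rrm2, of ribonucleotide reductase, 5.94 ± 0.771 CPM in KO and 5.52 ± 1.45 CPM in WT (SD, n = 3 each). Pcna and Tyms each hold the 7-base match and stood on opposite sides of 0.

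The 12 mitotic genes did not separate the genotypes, and they varied together across libraries within each genotype. Of these genes, 5 were higher and 7 lower in KO, with a median log2 fold change of -0.11, and none passed the edgeR threshold. Mki67, which encodes the proliferation antigen Ki-67, had 9.31, 3.25 and 4.19 CPM in KO 1, 2 and 3, against 6.78, 3.09 and 4.0 CPM in WT 1, 2 and 3. Top2a, a topoisomerase that untangles chromosomes, had 9.79, 3.46 and 5.77 CPM in KO 1, 2 and 3, against 9.99, 3.31 and 5.36 CPM in WT 1, 2 and 3. Aurkb, a kinase of chromosome attachment, had 1.74, 0.549 and 0.807 CPM in KO 1, 2 and 3, against 2.29, 0.393 and 1.25 CPM in WT 1, 2 and 3. In all 3 genes replicate 1 was the highest and replicate 2 the lowest of each genotype, and the groups overlapped.

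All 12 mitotic genes were higher in KO 1 than in KO 2, by 1.53-fold to 3.17-fold with a median of 2.25-fold, and all 12 were higher in WT 1 than in WT 2, by 1.7-fold to 5.84-fold with a median of 2.75-fold. KO 1 and WT 1 were the highest pair of libraries for 10 of the 12, against 12.9% of all genes tested, and KO 2 and WT 2 the lowest pair for 10 of the 12, against 10.3% of all genes tested. These libraries were singled out after their values were seen, so the shares are a description. Bub1, Cdc20 and Ccnb2 departed from this order. Bub1, a kinase of the spindle checkpoint, had 1.98, 1.19 and 0.709 CPM in KO 1, 2 and 3, against 1.92, 0.712 and 1.97 CPM in WT 1, 2 and 3. For Cdc20, WT 3 (7.47 CPM) lay above WT 1 (7.12 CPM), and for Ccnb2, KO 3 (1.64 CPM) lay below KO 2 (2.33 CPM). The median SD within a genotype, on the log2 scale, was 0.68 for the mitotic genes, 0.16 for the replication genes and 0.13 for the G1 genes, against 0.17 over all genes tested. The median SE of the log2 fold change was accordingly 0.45 for mitotic genes and 0.14 over all genes.

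The sign of the mitotic fold changes followed single libraries. Without KO 1, 0 of the 12 were higher and the median log2 fold change was -0.48. Without WT 1, 10 were higher and the median was 0.33. Without KO 2 and without WT 2, 9 and 1 were higher. For Mki67 the log2 fold change of 0.27 ± 0.46 (SE) was -0.31 without KO 1 and 0.64 without WT 1. Cdk1, the mitotic kinase itself, stood at -0.36 ± 0.39 (SE), at -0.62 without KO 1 and at 0.04 without WT 1. Its cyclins Ccnb1, Ccnb2 and Ccna2 were at -0.15 ± 0.44, 0.11 ± 0.41 and 0.16 ± 0.41. These cyclins were at -0.53, -0.23 and -0.16 without KO 1, and at 0.23, 0.41 and 0.55 without WT 1. The kinase genes Aurka and Plk1 stood at 0.22 ± 0.44 and -0.22 ± 0.51. Both were negative without KO 1, at -0.26 and -0.62, and positive without WT 1, at 0.44 and 0.06. Birc5, which encodes the chromosomal passenger survivin, stood at -0.08 ± 0.54, and Cdc20, an activator of the anaphase-promoting complex, at -0.14 ± 0.29 (SE). They were at -0.55 and -0.42 without KO 1, and at 0.41 and -0.04 without WT 1.

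**Figure D2:**
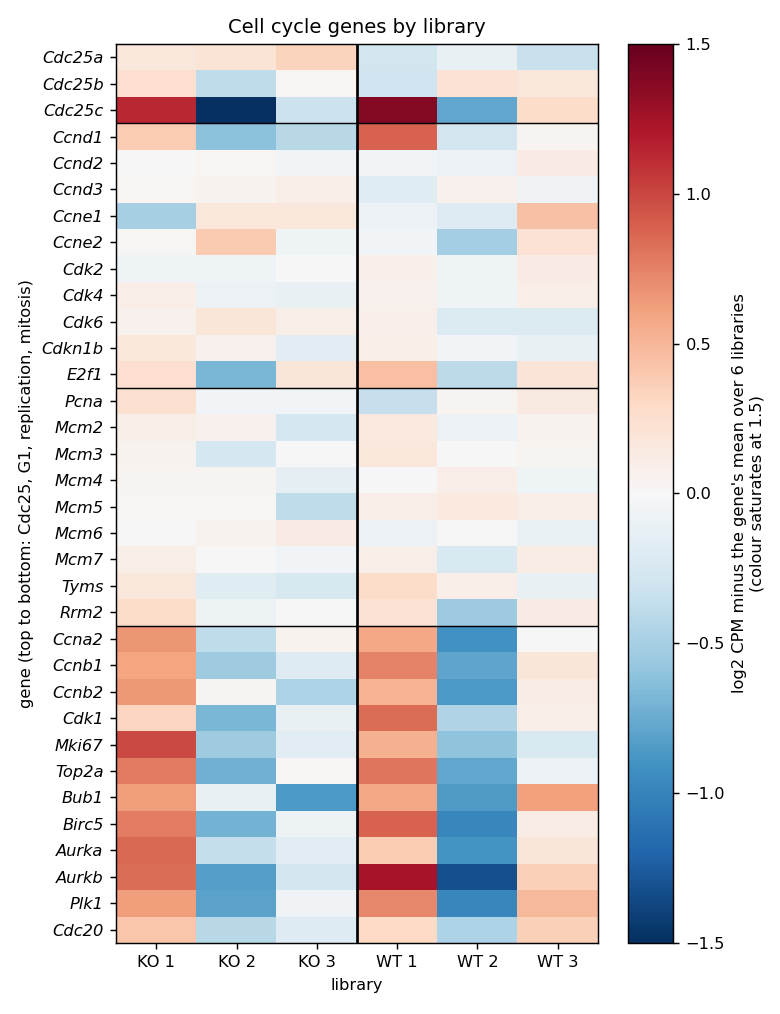
Each row is a gene and each column a library, KO left of WT, and colour gives log2 CPM minus the gene's mean over the 6 libraries. The mitotic rows at the bottom are red in KO 1 and WT 1 and mostly blue in KO 2 and WT 2, the replication rows are pale, and Cdc25a at the top is red in the 3 KO columns and blue in the 3 WT columns.

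Messages of some other cells differed between the same libraries. The mean centred log2 CPM of the 12 mitotic genes was 0.67, -0.50 and -0.21 in KO 1, 2 and 3, against 0.67, -0.81 and 0.18 in WT 1, 2 and 3. The summed fibroblast markers (Dcn, Lum, Pdgfra, Pi16 and Ly6a, none at 0 in any library) were at 5289, 1255 and 1781 CPM in KO 1, 2 and 3, against 6504, 2922 and 5823 CPM in WT 1, 2 and 3. KO 1 and WT 1 were the highest of their genotypes in both measures. The summed red cell precursor markers were at 132, 38.0 and 16.3 CPM in KO 1, 2 and 3, against 242, 37.2 and 9.52 CPM in WT 1, 2 and 3, nearly all from the globin genes Hba-a1 and Hbb-bs. The summed macrophage markers were at 25.6, 14.3 and 6.12 CPM in KO 1, 2 and 3, against 26.8, 7.44 and 10.4 CPM in WT 1, 2 and 3. The summed endothelial markers, at 59.6, 69.7 and 65.1 CPM in KO 1, 2 and 3, against 64.9, 63.7 and 60.6 CPM in WT 1, 2 and 3, did not follow this order. Most of that sum was Pecam1 (52.9 CPM in KO 1 and 58.4 CPM in WT 1). The scarce Cdh5, Kdr and Tie1 were each at their highest of the genotype in KO 1 and in WT 1, and Vwf in KO 2 and in WT 1. The summed cardiac muscle markers, at 11.2, 34.5 and 12.4 CPM in KO 1, 2 and 3, against 20.5, 25.0 and 15.3 CPM in WT 1, 2 and 3, did not follow the order either. Among macrophage markers Cd68 was an exception, with WT 1 the lowest WT library (2.66 CPM). The summed smooth muscle markers ran the other way, with KO 1 (24858 CPM) and WT 1 (20659 CPM) the lowest of their genotypes. Among them Myocd was an exception, with WT 1 the highest WT library (216 CPM). The part of these cells in the mitotic signal was not tested. For Cdc25a, KO 1 and WT 1 were at 0.977 and 0.893 times the level of KO 2 and WT 2.

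**Figure D3:**
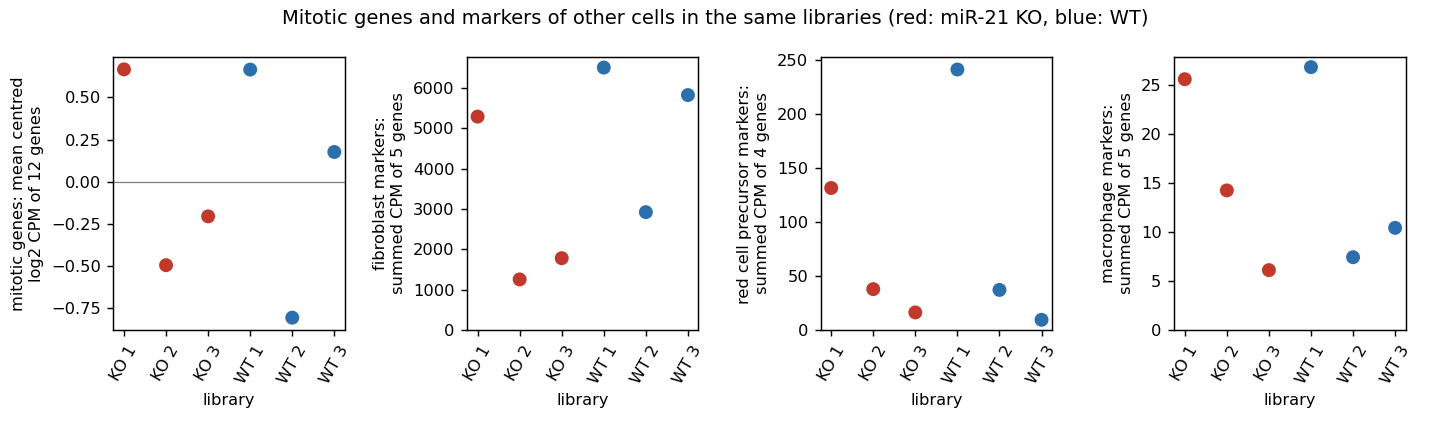
The left panel gives the mean centred log2 CPM of the 12 mitotic genes and the other panels the summed CPM of fibroblast, red cell precursor and macrophage markers, with 1 point per library and KO left of WT. KO 1 and WT 1 are at 0.67 in the left panel and are the highest of their genotypes in each panel.

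Most of the mitotic members whose promoters were found share short sequences there. RefSeq promoters (GRCm38.p6, 250 bases before to 50 after the start, the first listed for each gene) were found for 27 of the 34 members and 10 of the 12 mitotic genes. They were searched on both strands for CHR elements (TTTGAA or TTCGAA), a sequence known from genes of late division, for E2F motifs (TTTCCCGC, TTTGGCGC, TTTCGCGC or TTTGCCGC) and for CCAAT. Of the mitotic promoters, 8 of 10 held a CHR (80.0%), against 2 of 8 replication promoters, 0 of 7 G1 promoters and 13.7% of 10854 promoters of all genes tested. The mitotic promoters of Ccnb1 and Birc5 held no CHR, and that of Cdc25b, outside the mitotic genes, held a CHR. E2F motifs were in 4 of 8 replication promoters and 1 of 10 mitotic promoters, against 3.90% of all. CCAAT was in 9 of 10 mitotic and 7 of 8 replication promoters, against 38.8% of all. The windows of E2f1, Mcm7 and Cdk6 lie inside the gene bounds of GENCODE M21, so the first listed start need not be their main one. A match is a description of these letters and no evidence of binding.

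The promoters of Ccnb2 and Cdc20, mitotic genes whose messages were highest in KO 1 and lowest in WT 2, hold a CHR close to the start together with CCAAT boxes. Those of Mcm6, a replication gene, and Cdc25a hold E2F motifs and CCAAT and no CHR. They lie at chr9:70421505-70421804 (Ccnb2, minus strand), chr4:118437294-118437593 (Cdc20, minus strand), chr1:128359656-128359955 (Mcm6, minus strand) and chr9:109875329-109875628 (Cdc25a, plus strand). Capitals mark the motifs of all 3 kinds on either strand, and overlapping motifs form 1 run.
Ccnb2: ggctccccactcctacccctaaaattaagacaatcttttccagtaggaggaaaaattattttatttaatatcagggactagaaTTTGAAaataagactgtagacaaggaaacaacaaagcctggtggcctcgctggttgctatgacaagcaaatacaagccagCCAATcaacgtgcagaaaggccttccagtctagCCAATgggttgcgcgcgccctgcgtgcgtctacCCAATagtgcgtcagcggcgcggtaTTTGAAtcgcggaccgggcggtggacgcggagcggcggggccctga
Cdc20: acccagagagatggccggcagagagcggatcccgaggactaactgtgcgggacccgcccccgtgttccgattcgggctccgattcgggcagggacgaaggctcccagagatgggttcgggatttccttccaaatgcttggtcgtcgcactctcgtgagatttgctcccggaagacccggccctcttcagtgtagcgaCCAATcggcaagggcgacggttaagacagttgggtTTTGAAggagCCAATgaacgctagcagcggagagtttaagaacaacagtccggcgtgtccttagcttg
Mcm6: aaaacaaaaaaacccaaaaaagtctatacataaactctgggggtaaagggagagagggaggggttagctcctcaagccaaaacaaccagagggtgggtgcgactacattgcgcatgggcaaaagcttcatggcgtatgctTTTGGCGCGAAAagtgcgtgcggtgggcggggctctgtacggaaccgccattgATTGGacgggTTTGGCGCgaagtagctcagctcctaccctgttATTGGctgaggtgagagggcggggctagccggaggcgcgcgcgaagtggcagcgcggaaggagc
Cdc25a: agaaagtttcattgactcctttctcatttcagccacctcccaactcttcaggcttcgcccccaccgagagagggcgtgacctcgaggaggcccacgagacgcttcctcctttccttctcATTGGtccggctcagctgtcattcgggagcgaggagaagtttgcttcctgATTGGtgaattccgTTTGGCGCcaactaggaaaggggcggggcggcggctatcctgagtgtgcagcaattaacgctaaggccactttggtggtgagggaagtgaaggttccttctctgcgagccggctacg

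Levels of different genes were compared per length, as CPM per kilobase of merged exons averaged over the 6 libraries. The G1 genes Ccnd2, Cdk4 and Ccnd3 (32.2, 23.9 and 19.8 CPM per kilobase), with Mcm6 (21.3) and Pcna (11.2), led the list. Other subunits of the Mcm ring were well below Mcm6, at 7.17 (Mcm4), 2.89 (Mcm3), 2.57 (Mcm7), 1.38 (Mcm2) and 1.37 (Mcm5). Cdc25b (4.69) was above Cdc25a (2.18), and the lowest places were taken by Cdc25c (0.0768), Bub1 (0.325), Aurkb (0.398), Birc5 (0.492) and Mki67 (0.507). Cdc25a was at 2.54 CPM per kilobase in KO and 1.83 in WT, and Cdc25b at 4.60 in KO and 4.79 in WT. The scarcest genes rested on few reads, with 16 counts of Aurkb and 29 of Bub1 in WT 2. Values of 9 members, among them Ccna2, Ccnb1, Ccnd1, Cdk4, Mcm6 and Pcna, were not whole numbers in any library (tolerance 0.01) and 14 members share exon bases with another gene, so these are less certain. For Ccnd1 the shared bases, all with a gene on the opposite strand (LTO1), were 23.4% of its exons. For Cdk4 the bases shared with Tspan31, also on the opposite strand, were 19.7%. The use of strand in the counting is not given in the sources used here.

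**Figure D4:**
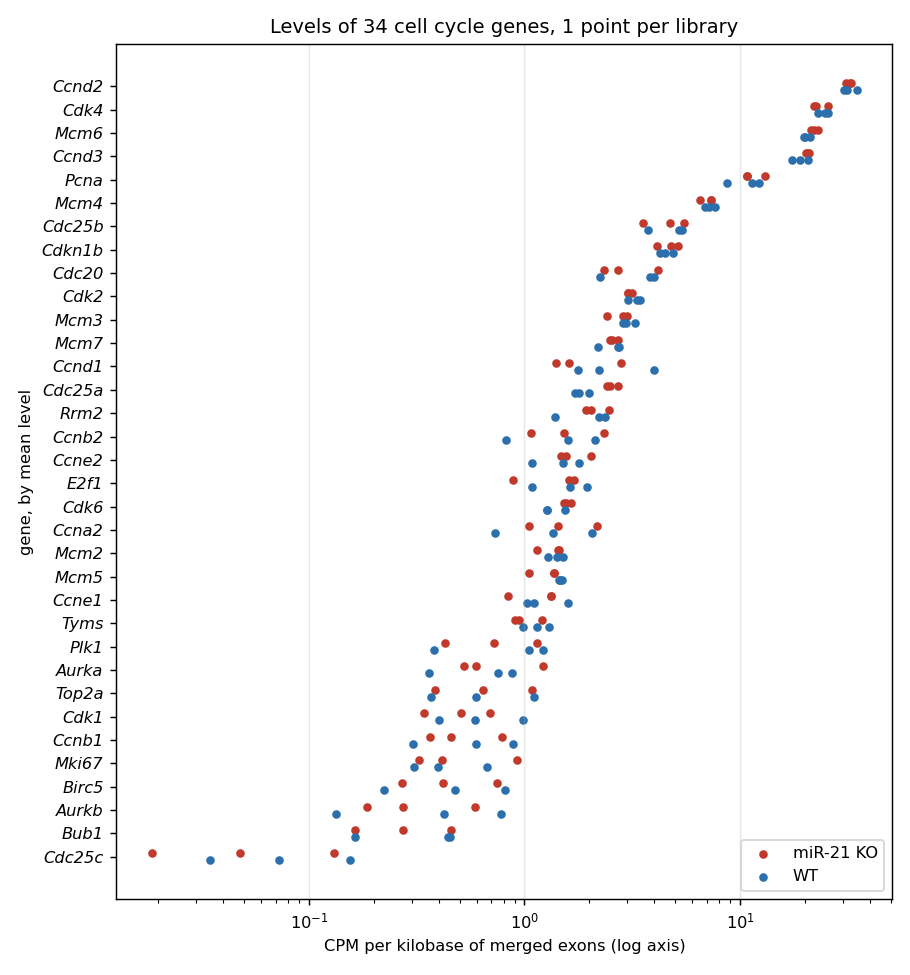
CPM per kilobase of merged exons on a log axis for the 34 members, ordered by mean, with 1 point per library. Red KO points are drawn above blue WT points within each row. The groups lie apart for Cdc25a (2.54 in KO and 1.83 in WT on average), and the points of the mitotic genes at the bottom spread widely in both groups.

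Over all members, 14 of 34 were higher in KO (41.2%), against 49.4% of all genes tested, and the median log2 fold change was -0.06, against -0.00 over all genes. The count of higher members followed single libraries, at 6 without KO 1, 21 without KO 2, 19 without KO 3, 20 without WT 1, 10 without WT 2 and 16 without WT 3, and was 9 in limma-voom with sample quality weights. In edgeR 0 of the 34 members and 0 of 16654 genes (0%) passed an adjusted p of 0.05, and the smallest adjusted p over all genes was 0.217. At an unadjusted p under 0.05, 1 member was higher (Cdc25a), against 3.95% of all genes, and 0 were lower, against 2.01%. DESeq2 called 1 member, Cdc25a, against 0.447% of the genes it gave an adjusted p. All KO libraries lay above all WT libraries for 2 members (Cdc25a and Mcm6), against 6.48% of all genes, and below them for 1 (Mcm5), against 5.6% of all genes. The counts of non-overlapping members and of unadjusted p are near the background shares.

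**Figure D5:**
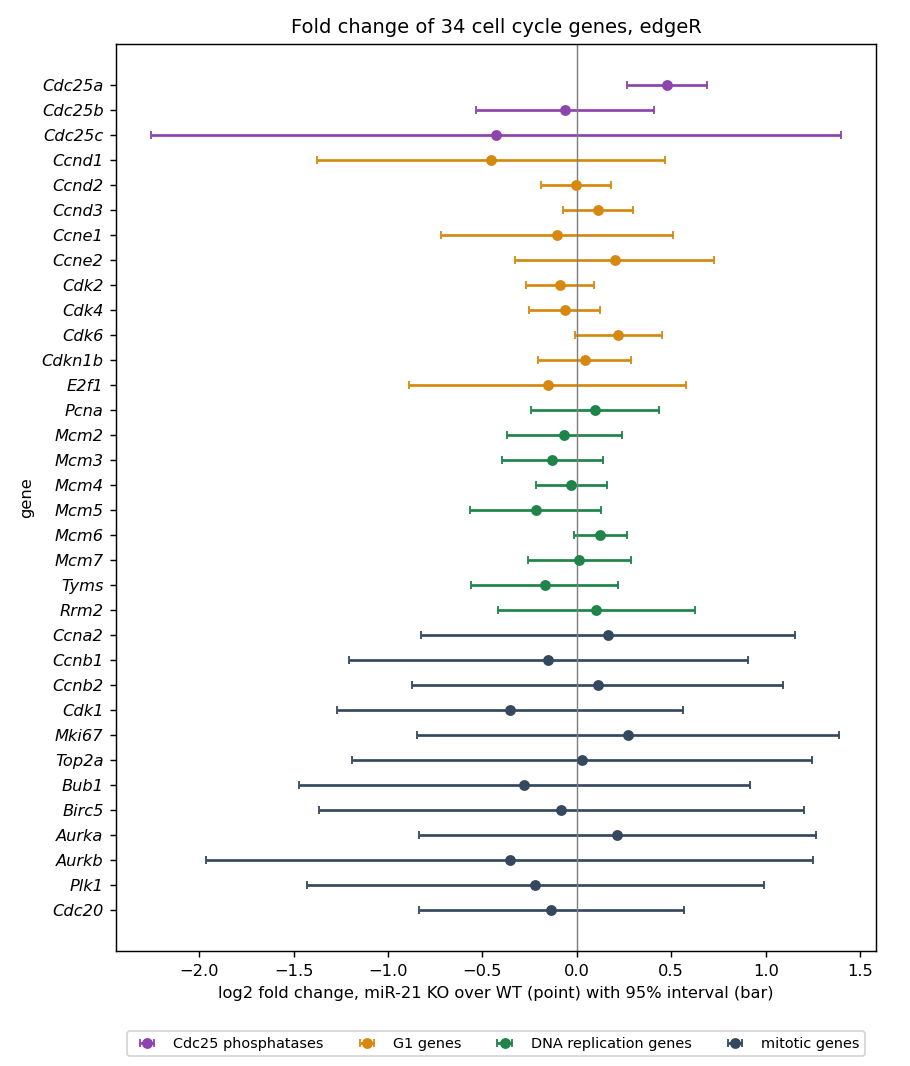
Points give the log2 fold change of each member, KO over WT, with 95% intervals from edgeR, and colours give the 4 roles. The interval of Cdc25a (0.26 to 0.69) lies above 0, those of the other 33 genes include 0, and those of the mitotic genes are wide.

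Other genes of the pathway, in 5 lists of 120 genes of which 117 were tested, gave 54 higher and 63 lower in KO, with a median log2 fold change of -0.00, and 0 passed in edgeR or DESeq2. Without adjustment, edgeR's p was under 0.05 for 2 of the 117 that were higher, against 3.95% of all genes, and 2 that were lower, against 2.01%, so neither count exceeds the background. Of 24 genes of the G1 and retinoblastoma pathway, 11 were higher. E2f3, a factor that drives entry into DNA replication, had 7.21 ± 0.405 CPM in KO and 5.62 ± 0.375 CPM in WT (log2 fold change 0.36 ± 0.11, SE; adjusted p = 0.793). Tfdp1, the partner of E2F factors on DNA, had 42.3 ± 2.6 CPM in KO and 52.0 ± 3.03 CPM in WT (-0.30 ± 0.07; adjusted p = 0.750), and Ccnh, of the CDK-activating kinase, 27.9 ± 0.852 CPM in KO and 31.9 ± 0.720 CPM in WT (SD, n = 3 each). In these 3 genes the groups did not overlap. Over the 117 genes, groups did not overlap for 3 that were higher, against 6.48% of all genes, and 4 that were lower, against 5.6%. Neither count exceeds the background. E2f2, another E2F activator, stood at 0.71 ± 0.35 (SE), with overlapping groups.

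Of 6 CDK inhibitor genes tested, 3 were higher, with Cdkn1a, which encodes p21, at 179, 172 and 165 CPM in KO 1, 2 and 3, against 148, 95.2 and 175 CPM in WT 1, 2 and 3. The inhibitor gene Cdkn2c had 12.5 ± 3.01 CPM in KO and 17.8 ± 4.42 CPM in WT (log2 fold change -0.51 ± 0.24, SE; edgeR adjusted p = 0.854). The inhibitor genes Cdkn1c and Cdkn3 stood at 0.05 ± 0.16 and -0.32 ± 0.49 (SE). Of 42 further DNA replication genes, 21 were higher and 21 lower, with the polymerase subunit Pold1 at 0.22 ± 0.10, the origin recognition subunit Orc5 at 0.19 ± 0.09, the clamp loader subunit Rfc4 at -0.37 ± 0.19 and the licensing factor Cdt1 at -0.65 ± 0.36 on the log2 scale (SE). Of 36 further mitotic genes, 13 were higher, and 24 had KO 1 and WT 1 as the highest pair of libraries (66.7%), the order seen in the 12 members. Anln, an actin-binding protein of the cleavage furrow, departed from that order, with 107, 128 and 130 CPM in KO 1, 2 and 3, against 97.1, 101 and 87.4 CPM in WT 1, 2 and 3, without overlap (log2 fold change 0.35 ± 0.10, SE; edgeR adjusted p = 0.780). The spindle genes Nusap1 and Nuf2 stood at 0.31 ± 0.37 and -0.56 ± 0.31, and the separase gene Espl1 at -0.38 ± 0.26 (SE). Of 9 regulators of the Cdc25 phosphatases and of their site on Cdk1, 6 were higher. Wee1, the kinase that adds the phosphate Cdc25 removes, had 21.6 ± 4.54 CPM in KO and 23.1 ± 9.51 CPM in WT, and the checkpoint kinase genes Atm and Atr stood at 0.30 ± 0.15 and 0.18 ± 0.12 (SE). Fzr1, an activator of the anaphase-promoting complex, stood at -0.04 ± 0.06 (SE).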

How the data were processed

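The authors deposited 1 table of expected counts per gene for 6 RNA-seq libraries, estimated and not normalized. Per the submitters' processing notes, STAR 2.6, DESeq2 and mm10 were used, with no role given. Per the labels' protocols, libraries came from an Illumina TruSeq kit. How reads were counted, and on which annotation, is not given in the sources used here. Counts were rounded, filtered with filterByExpr (16654 genes), TMM-scaled and tested as KO over WT by the robust quasi-likelihood test (edgeR 4.0.16, R 4.3.3). Tests were two-sided. Adjustment (Benjamini-Hochberg) ran over all genes tested, with a threshold of 0.05. The procedure was checked on simulated counts. Alternatives used DESeq2 1.42.0 and limma 3.58.1. In each group, replicates differed by more than counting noise, the chi-square per gene averaging 30.2 to 109. Exon lengths and UTRs came from GENCODE M21. Centred log2 CPM used a prior count of 2. Every member is named, with the 2 smallest p per direction of each other list, and genes with a miR-21 match beyond that rule were chosen after their values were seen. Members and lists were chosen with earlier results of these data known. The level of 1 marker gene on its own is not reported here.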

Additional observations from a re-analysis of the deposited data

How the results depend on the processing

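EdgeR called 0 genes at an adjusted p of 0.05, and DESeq2 called 73, among them 1 member, Cdc25a, with a log2 fold change of 0.48 and an adjusted p of 0.0107. Over all alternatives the adjusted p of Cdc25a ran from 0.0107 to 1.00. Leaving out each library called 0 to 1 genes. With the replicate number as a block 1 gene was called, no member among them. Same-numbered libraries carry adjacent numbers in the names of the deposited columns. Deviations of same-numbered libraries correlated at 0.289, 0.317 and -0.026 over genes. KO 1 with WT 2 and KO 2 with WT 1 were at -0.351 and -0.265, and KO 3 correlated best with WT 2 (0.117). Deviations within a group sum to 0, so those of KO 3 follow from KO 1 and KO 2 and cannot decide the pairing. The labels state no pairing, and the main test did not use one. Whether same-numbered libraries share a batch was not tested. The longer miR-21 match left 1 member with a site. In limma-voom with quality weights 9 members were higher, and Ccne2 (-0.013), Pcna (-0.015), Mcm7 (-0.057), Ccnb2 (-0.16) and Aurka (-0.064) turned negative. Leaving out each library moved the number of higher members between 6 and 21. Of the 34 members, 10 kept their sign under every alternative run and 24 did not. With single libraries left out, the log2 fold changes of members that turned ran from -0.21 to 0.093 (Cdc25b), -1.30 to 0.17 (Cdc25c), -0.050 to 0.055 (Ccnd2), -0.23 to 0.12 (Ccne1), -0.033 to 0.13 (Cdkn1b), -0.36 to 0.088 (E2f1), -0.035 to 0.19 (Pcna), -0.13 to 0.040 (Mcm2), -0.069 to 0.027 (Mcm4), -0.091 to 0.070 (Mcm7), -0.10 to 0.23 (Rrm2), -0.16 to 0.55 (Ccna2), -0.53 to 0.23 (Ccnb1), -0.23 to 0.41 (Ccnb2), -0.62 to 0.036 (Cdk1), -0.31 to 0.64 (Mki67), -0.42 to 0.53 (Top2a), -0.73 to 0.030 (Bub1), -0.55 to 0.41 (Birc5), -0.26 to 0.44 (Aurka), -0.94 to 0.25 (Aurkb), -0.62 to 0.064 (Plk1) and -0.42 to 0.026 (Cdc20). Cdc25c was not tested under the filter of 1 CPM in 3 libraries. Depth limits the precision of Cdc25c, at 4 to 55 counts a library. The cause of these changes was not tested.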

Other observations

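Among the 117 other cell cycle genes tested, 7 held the 7-base miR-21 match in the 3′ UTR, against 7.33% of all tested genes searched, and 5 of these 7 were higher in KO, against 49.4% of all genes tested, with a median log2 fold change of 0.13 and 0 past the edgeR threshold. E2f2, an activator of entry into DNA replication with the longer match, had 0.992, 1.05 and 0.793 CPM in KO 1, 2 and 3, against 0.501, 0.368 and 0.805 CPM in WT 1, 2 and 3, so that KO 3 and WT 3 overlapped. Skp2, which marks p27 for destruction and also holds the longer match, had 5.23 ± 0.765 CPM in KO and 4.40 ± 0.412 CPM in WT (SD, n = 3 each). The longer match was also in Gins3, at 0.21 ± 0.24, and in Rpa2. Rpa2 and Gins1 were the lower ones, at -0.05 ± 0.09 and -0.62 ± 0.43 on the log2 scale (SE). Gins1, of the replication helicase, had 0.188, 0.641 and 0.542 CPM in KO 1, 2 and 3, below 0.712, 0.663 and 0.766 CPM in WT 1, 2 and 3.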
